A study of Mus musculus with 7 samples.

Results

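The calcium-activated chloride channel family was described through 5 genes, Clca3a2, Clca3a1, Clca1, Ano1 and Cftr, in 2 kinds of transplanted mouse mammary tumour. Members were taken as every probe set with exactly 1 of these symbols in GEO's annotation of the platform, which gave 8 of the 22626 probe sets left without controls. Clca3a2 and Ano1 had 1 probe set each, and Clca3a1, Clca1 and Cftr had 2 each. The family was chosen by the Met1 minus DB7 difference of Clca3a2, which is the largest of the whole array. Its values are therefore given as a description, without a test, and so are those of its close paralog Clca3a1, whose probes can take up the same transcript. The others were named as relatives and not for their own values, although earlier results of these data were known when members were chosen. Clca1 and Cftr were too dim to be tested, and the fitted comparison was used for Ano1.

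Total RNA of 3 Met1 and 4 DB7 transplant tumours was measured on 1-colour expression arrays. Met1 and DB7 are lines from mouse mammary tumours that carry the polyoma middle T antigen, an oncogene used to drive mammary cancer. Met1 is known to metastasise readily and DB7 seldom, and DB7 is known to carry a mutated form of the antigen, a difference that the labels do not state. All groups share this oncogene, and none is normal gland. The labels give no host strain, age or site of transplantation, and the series' design text speaks of first-generation outcrosses, whereas every sample label names a transplant tumour. Each group is a single line, so n counts samples of that line. The labels do not say that the samples came from separate animals, so a p-value here reflects only how far these samples spread, and part of that spread may be technical.

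Chloride leaving an epithelial cell draws sodium and water after it, which keeps secretions fluid. Ano1 is itself the pore opened by calcium inside the cell, and Cftr is a separate chloride pore opened by cyclic AMP and protein kinase A. The Clca proteins were first taken for channels and are now regarded as secreted or surface-bound proteins with a protease-like domain, some of which raise the current of Ano1. Clca1 is made by mucous (goblet) cells of airway and gut. Clca3a1 and Clca3a2 have been described in the mammary gland around lactation and involution.

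Clca3a2 transcript was abundant in every Met1 tumour and near the bottom of the scale in every DB7 tumour. Its probe set, 1419463_at, read 10.46, 10.21 and 10.62 in Met1 1, 2 and 3, as log2 summaries of probe brightness. It read 4.40, 3.78, 4.34 and 4.51 in DB7 1 to 4. The groups lay far apart, and the lowest DB7 value was that of DB7 2. The means were 10.43 ± 0.21 (SD, n = 3) and 4.26 ± 0.33 (SD, n = 4), a difference of 6.17 or 72.1-fold. The array medians lay between 6.53 and 6.61, so the DB7 level was below the median of every array, at the 11.3 percentile of probe sets against the 97.7 percentile in Met1. Summaries near the floor compress differences, and the fold is approximate.

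The rule took the largest difference, and the values on either side of that choice were close. A probe set annotated to Clca3a2 and Clca3a1 together, 1460259_s_at, was next with a difference of 5.67. The milk protein gene Lalba followed with 5.65, as did Igfbp5, which binds insulin-like growth factors, also with 5.65. The probe set shared by the paralogs read 9.82, 9.41 and 9.96 in Met1 and 4.19, 3.69, 4.28 and 4.10 in DB7. It is outside the 8 member probe sets because it carries both symbols. As for Clca3a2, Met1 2 was the lowest Met1 array, Met1 3 the highest and DB7 2 the lowest of all.

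**Figure D1:**
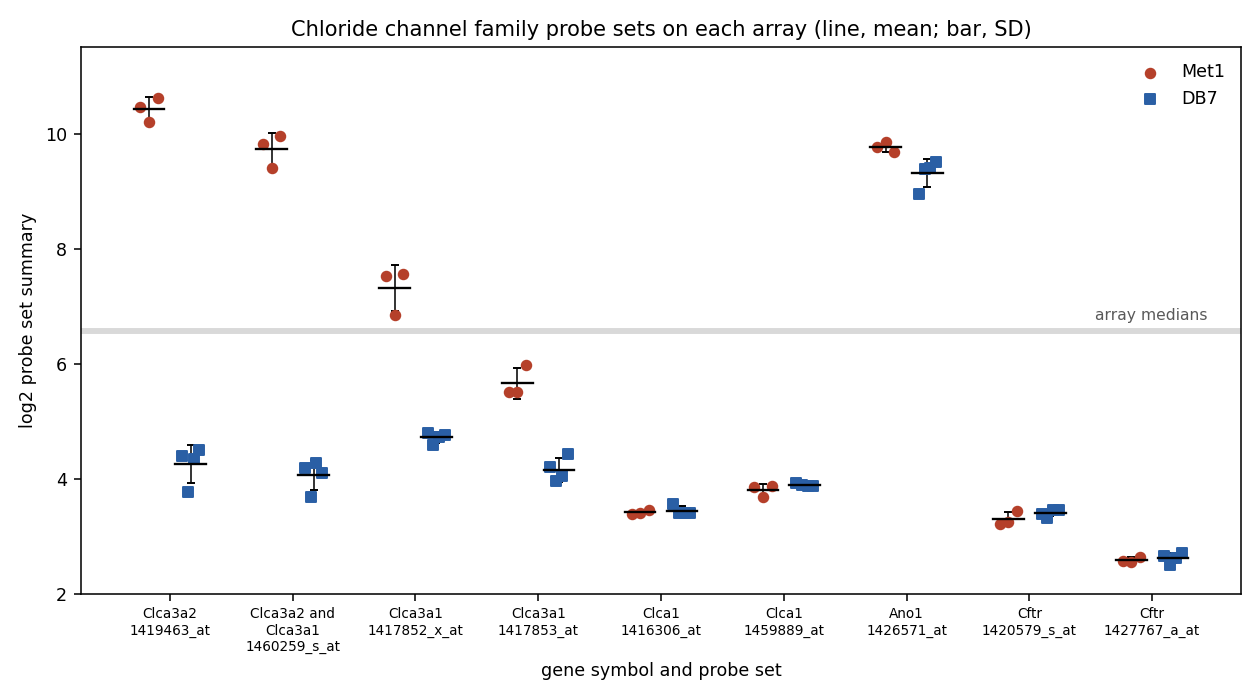
Log2 summary (vertical axis) of each probe set (horizontal axis) on each of the 3 Met1 arrays (circles) and 4 DB7 arrays (squares), with group means as lines, SD as bars and the range of the array medians as a grey band. Clca3a2 and the probe set it shares with Clca3a1 read from 9.41 to 10.62 in Met1 and from 3.69 to 4.51 in DB7, whereas Clca1 and Cftr read at most 3.93 on every array.

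Clca3a1, the paralog 19.6 kb away, was also higher in Met1, by less, and its probe sets disagreed on the amount. The probe set 1417852_x_at, whose suffix marks probes shared with other transcripts, read 7.53, 6.85 and 7.55 in Met1 and 4.80, 4.58, 4.73 and 4.77 in DB7. The groups did not overlap, and the difference was 2.59 (6.02-fold). The probe set 1417853_at, with no such mark, read 5.51, 5.51 and 5.97 in Met1 and 4.21, 3.96, 4.04 and 4.43 in DB7. The difference there was 1.50 (2.84-fold), and every value lay below the median of its array. In Met1 the probe set with shared probes had its lowest value on the same array as Clca3a2, Met1 2, whereas the other read 5.51 on both Met1 1 and Met1 2. How much of the Clca3a1 signal came from Clca3a2 transcript was not tested, since the summaries do not separate single probes.

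The start region of Clca3a1, a member whose probe sets read higher in Met1, is shown from RefSeq (GRCm38.p6). It runs from 250 bases before to 50 bases after the start, on the minus strand, and is written 5′ to 3′. Capitals mark the letters CCAAT, a common promoter element.
Clca3a1, chr3:144760928-144761227: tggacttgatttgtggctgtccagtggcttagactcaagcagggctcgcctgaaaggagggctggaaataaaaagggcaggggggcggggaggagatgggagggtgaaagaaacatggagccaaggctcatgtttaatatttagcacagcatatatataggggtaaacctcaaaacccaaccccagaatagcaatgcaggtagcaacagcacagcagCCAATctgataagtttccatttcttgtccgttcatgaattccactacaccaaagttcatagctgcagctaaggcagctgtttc
Letters of 3 motifs were searched on both strands of the start regions of Clca3a1, Ano1 and Cftr. CCAAT occurred in Clca3a1, 33 bases before the start, and in Cftr just after it, and in 37.4% of 32851 RefSeq start regions of this length. TTCNNNGAA, the letters bound by STAT factors such as the prolactin-activated one, occurred in none of these 3 regions and in 8.3% of all. TATAAA occurred in none of the 3 and in 13.6% of all. A match describes the letters and is no evidence of binding, and these letters can lie outside this window. The start regions of Clca3a2 and Clca1 were not searched.

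Clca1, the goblet cell member, read at the foot of the scale in both lines. Its probe set 1416306_at gave 3.40, 3.40 and 3.45 in Met1 and 3.56, 3.40, 3.40 and 3.40 in DB7. Its probe set 1459889_at gave 3.86, 3.68 and 3.87 in Met1 and 3.93, 3.90, 3.87 and 3.87 in DB7. The groups overlapped for both, with differences of -0.02 and -0.09. Neither probe set reached the median of any array, and neither was tested. Mucous cell markers beside it were mixed: of 8 tested, 1 rose (Fcgbp, a protein of mucus that binds antibody) and 2 fell (Spdef and Foxa3, transcription factors of mucous cells, the latter passing the filter through DB7 alone), and 3 of the 11 measured (Agr2, Tff2 and Retnlb) stayed below the median of every array. The mean log2 level of that list was 6.90 to 7.09 in Met1 and 6.95 to 7.13 in DB7. Over all tested genes of the array 13.0% rose and 17.9% fell.

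Ano1, the pore itself, was bright in both lines and 1.37-fold higher in Met1. Its probe set 1426571_at read 9.76, 9.86 and 9.68 in Met1 and 8.96, 9.38, 9.41 and 9.51 in DB7. The groups did not overlap, with 9.68 as the lowest Met1 and 9.51 as the highest DB7 value, and DB7 1 was the lowest of all. The means were 9.77 ± 0.09 (SD, n = 3) and 9.32 ± 0.25 (SD, n = 4), a difference of 0.45 (SE 0.13; limma with Benjamini-Hochberg adjustment over all tested probe sets, adjusted p = 0.031). In the same fit 31.0% of tested probe sets were called, 13.4% higher and 17.6% lower in Met1, so the call of Ano1 was 1 among many. It was lost when Met1 1, Met1 2, Met1 3 or DB7 3 was left out (adjusted p = 0.0871, 0.12, 0.0659 and 0.0503), while the difference stayed between 0.33 and 0.52 in all 7 such fits. Without DB7 1 the difference was 0.33 (adjusted p = 0.0205). Ano1 is also known in smooth muscle and in the pacemaker cells of the gut, marked by Kit. Of 3 tested markers of such cells, Rgs5 rose by 0.62, and Kit and Des, at -0.14 and 0.03, did not pass, while Myh11, Cnn1 and Actg2 stayed below every array median. The mean level of that list was 6.81 to 6.89 in Met1 and 6.70 to 6.84 in DB7, and its part in the Ano1 result was not tested.

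Cftr gave no signal above the foot of the scale. The probe set 1420579_s_at read 3.21, 3.25 and 3.44 in Met1 and 3.39, 3.32, 3.45 and 3.45 in DB7. The probe set 1427767_a_at read 2.56, 2.55 and 2.64 in Met1 and 2.66, 2.50, 2.62 and 2.71 in DB7, among the lowest values on the arrays. Differences were -0.10 and -0.04, the groups overlapped, and neither probe set was tested. A level this low bounds the signal of these probes only, and no detection call was at hand.

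Across the family, 4 of the 8 probe sets had groups that did not overlap, and these 4 were higher in Met1. Over all 22626 probe sets the groups did not overlap in 27.5%, of which those higher in Met1 made up 11.2% and those lower 16.2% of all, and over the tested probe sets they did not overlap in 39.4%. Since Clca3a2 was chosen in this contrast, nothing is read from the count. Of the 8, 3 passed the filter on dim values (above the array median on at least 3 arrays), and Clca3a2 and 1 probe set of Clca3a1 did so through their Met1 values alone. The median difference over all probe sets was -0.05. The family thus ran from 6.17 for Clca3a2 to -0.10 for Cftr, with all 4 probe sets of Clca1 and Cftr close to zero.

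**Figure D2:**
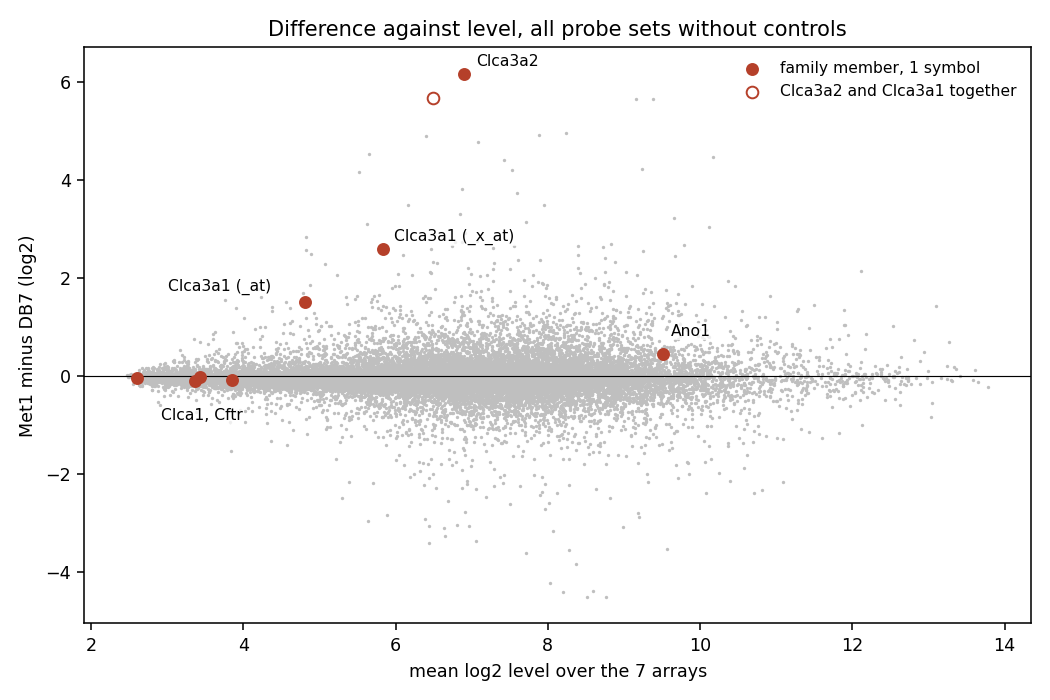
Met1 minus DB7 difference (log2, vertical axis) against the mean log2 level over the 7 arrays (horizontal axis) for all 22626 probe sets without controls (grey). Filled circles are the 8 member probe sets and the open circle is the probe set that Clca3a2 and Clca3a1 share. Clca3a2 at 6.17 and the shared probe set at 5.67 lie above all other points, while Clca1 and Cftr lie near 0 at the left end.

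The position of the genes was not part of the choice. The Clca genes lie side by side on mouse chromosome 3. In RefSeq (GRCm38.p6) Clca3a1 spans chr3:144729677-144760977, Clca3a2 chr3:144780581-144819623, Clca3b chr3:144822623-144849302 and Clca1 chr3:145004537-145032776. From Clca3a1 to Clca2 the cluster covers 370.0 kb. Only 3.0 kb separate Clca3a2 from Clca3b, a further paralog. Clca3b read 3.66, 3.69 and 3.77 in Met1 and 3.69, 3.97, 3.69 and 3.73 in DB7. These values overlapped, lay below every array median and differed by -0.07. Clca2, Clca4a and Clca4b had no probe set with a single symbol in the annotation used here.

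Genes on the outer side of Clca3a1 were lower in Met1. Sh3glb1, a membrane-bending protein of autophagy and mitochondria that lies 9.27 kb from Clca3a1, fell by 0.43 (SE 0.10; limma, adjusted p = 0.00978). Selenof, a selenoprotein of the endoplasmic reticulum, fell by 0.37, and Hs2st1, a heparan sulfate sulfotransferase, fell by 0.42 (limma, adjusted p = 0.04 and 0.0117). On the far side of the cluster Odf2l was dim and differed by -0.19. Ccn1, a matrix-associated signalling protein, lay 614.2 kb beyond Clca1 and rose by 0.49, and Bcl10, an adaptor of NF-kappa-B signalling, did not pass at -0.07. The higher signal in Met1 was thus seen at the probe sets of Clca3a2 and Clca3a1, which were not separated, and not at the measured genes next to them. Of the nearby genes, Clca3b and Odf2l were too dim to be tested, and Clca2, Clca4a and Clca4b were not measured.

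**Figure D3:**
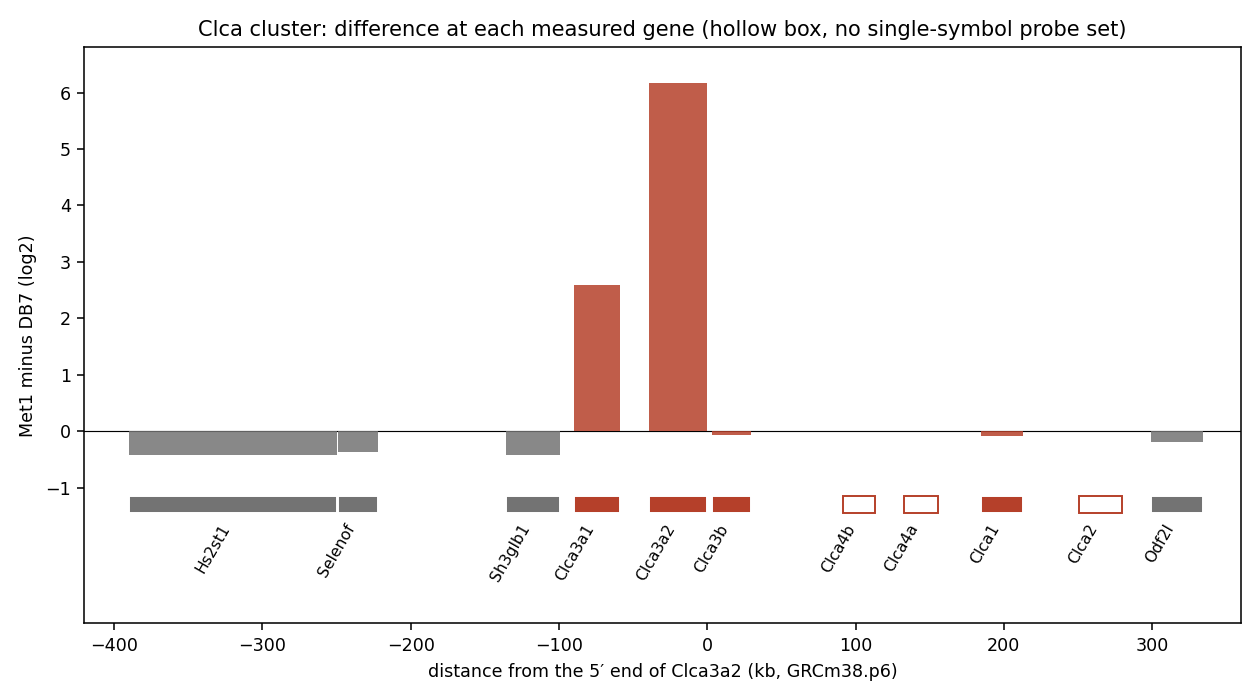
Met1 minus DB7 difference (log2, bars) at the measured genes around the Clca cluster, placed by distance in kb from the 5′ end of Clca3a2, with gene extents as boxes below (red, Clca genes; grey, others; hollow, no single-symbol probe set). Clca3a2 at 6.17 and Clca3a1 at 2.59 stand up beside Clca3b at -0.07 and Sh3glb1 at -0.43. The bar of Clca3a1 is that of 1417852_x_at, whose probes are shared with other transcripts, and its other probe set differed by 1.50. Clca3b was too dim to be tested.

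Around Ano1 on chromosome 7 the closest measured gene, Fadd, an adaptor of death receptors, differed by -0.23 (SE 0.09; limma, adjusted p = 0.0795). Cttn, the actin-binding protein cortactin, differed by 0.30 (adjusted p = 0.0532). Neither passed, although the groups did not overlap in either. Dhcr7, the last enzyme of cholesterol synthesis, fell by 0.61, Fgf4 did not pass at 0.03, and Fgf3 and Fgf15 were not tested. Around Cftr on chromosome 6, Lsm8, an RNA-processing protein, fell by 0.88, and the other 5 measured neighbours were too dim to test. Of the 19 neighbours of the 5 members that are no members themselves, 10 were tested, of which 1 rose and 5 fell, where 13.0% of all tested genes rose and 17.9% fell.

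The 5 genes whose arrays followed Clca3a2 most closely were Igfbp5, Lalba, Muc15, Mup5 and Wap. Likeness was measured as the root-mean-square distance between profiles, each centred on its own mean over the 7 arrays, on the log2 scale. Igfbp5 was nearest at 0.35, followed by Lalba, alpha-lactalbumin of milk, at 0.37. Muc15, a mucin found on milk fat globules, lay at 0.72, Mup5, a major urinary protein, at 0.73 and Wap, the whey acidic protein, at 0.76. The probe set shared by the paralogs lay at 0.27, the Clca3a1 probe sets at 1.78 and 2.32, and Ano1 at 2.85. Because the distance is set mostly by the size of the difference between the lines, it groups genes of large difference, the value that chose Clca3a2, and it is a description only. Within the lines the array order was shared in part. Igfbp5 ran 6.96, 6.18, 6.54 and 7.25 in DB7 1 to 4, the same order as Clca3a2. In Met1 1 to 3 Igfbp5 ran 12.51, 12.43 and 12.21, lowest on Met1 3, the highest array for Clca3a2. Lalba was highest in Met1 on Met1 3, as Clca3a2 was, but lowest in DB7 on DB7 4 (6.88), where Clca3a2 was highest. Met1 1 was the lowest Met1 array for Wap (10.14, against 11.43 and 11.67) and the middle one for Clca3a2. The second tested probe set of Igfbp5 differed by 2.68.

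**Figure D4:**
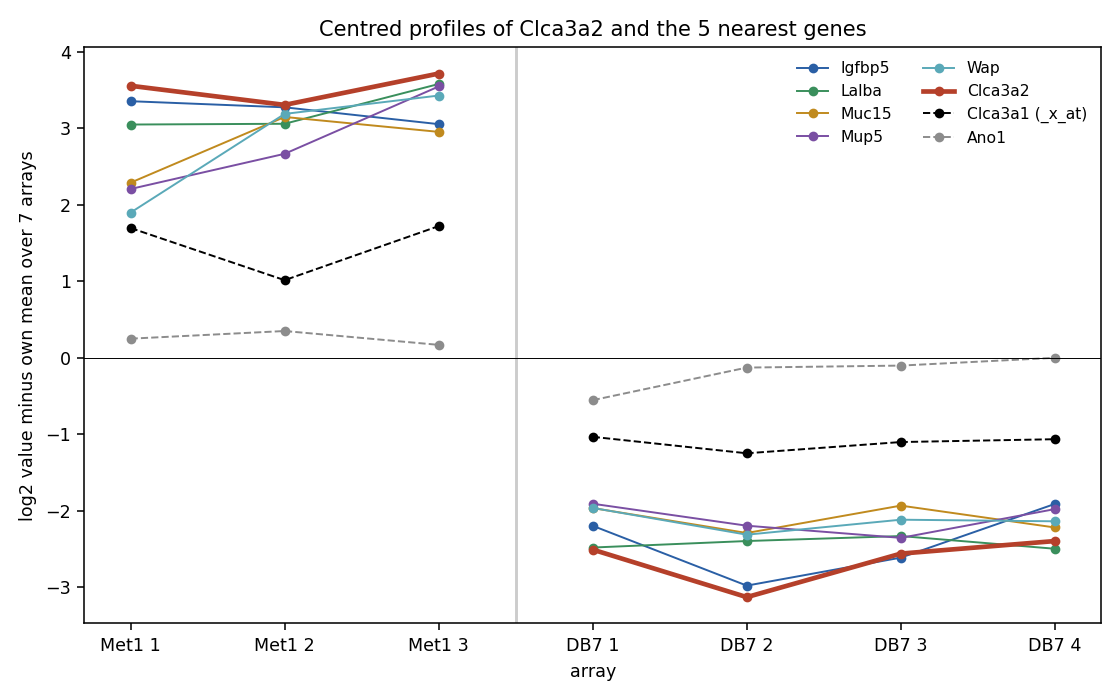
Log2 value minus the gene's own mean over the 7 arrays (vertical axis) for each array (horizontal axis; lines only join the points of 1 gene within a tumour line and carry no order). Clca3a2 (thick red) and the 5 nearest genes differ between the lines by 4.90 to 6.17, while Clca3a1 (1417852_x_at) and Ano1 (dashed) differ by 2.59 and 0.45.

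Markers of cell types moved beside these values. Of 6 tested alveolar secretory markers, the milk-making cells, 6 rose in Met1: Lalba 50.3-fold, Wap 31.3-fold, Btn1a1 6.73-fold, Xdh 3.45-fold, Csn3 2.67-fold and Csn1s1 2.35-fold. Wap and Btn1a1 passed the filter through Met1 alone, and Lalba and Wap are among the 5 genes nearest to Clca3a2 above. Over all tested genes 13.0% rose and 17.9% fell. Of the 8 alveolar markers measured, Csn2 and Csn1s2a were not tested, and 1, Csn1s2a, stayed below every array median. The mean level of the alveolar list was 8.88 to 9.58 in Met1 and 6.76 to 6.97 in DB7. The part of these markers in the Clca3a2 difference was not tested. In bulk tumours more cells of a type and more RNA per cell cannot be told apart. Clca3a1 is known as a surface protein of lymphatic endothelium. Of 2 tested lymphatic markers, Pdpn (0.16) and Flt4 (0.01), 0 passed in limma and 0 had an unadjusted p under 0.05, and Lyve1 and Prox1 stayed below every array median. The mean level of that list was 5.68 to 5.90 in Met1 and 5.44 to 5.68 in DB7. Luminal markers moved both ways, with 2 of 6 higher and 3 lower. DB7 1 and DB7 4 stood apart in the immunoglobulin joining chain gene Jchain, at 8.33 and 9.33 against 5.08 to 5.88 on the other 5 arrays. Jchain is 1 of 4 listed markers of B cells, of which 0 were tested. Cd79a and Cd79b, also listed, stayed below every array median. Glycam1, a mucin-like protein of milk and lymph node vessels, read 8.58 and 7.11 on the same 2 arrays and 5.38 to 5.61 on the others. These 2 also lay above DB7 2 and DB7 3 in the fibroblast gene Col1a1 (11.40 and 10.61 against 9.46 and 8.88) and the adipocyte gene Fabp4 (9.88 and 8.64 against 8.25 and 7.58). Without these 2 arrays Clca3a2 differed by 6.37 and Ano1 by 0.37.

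The wider machinery of chloride secretion did not move as a block. Lists of related genes held 93 names, of which 61 were measured and 43 tested; 10 rose and 6 fell, and the median difference was -0.04. Over all 7482 tested genes 30.9% passed, 13.0% upward and 17.9% downward, and the median was -0.04. The lists' 16 of 43 lay near the pooled share. More of them were upward, 10, than downward, 6, where the array had more downward, and no test of this difference was made. Both sides of this contrast depended on the settings. With the smallest p per gene 11 listed genes rose and 9 fell, and median centring gave 1775 probe sets of the array higher and 1690 lower.

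Of the partners that hold Cftr and other transporters at the apical membrane or bring them there, the NHERF scaffolds Slc9a3r1 and Slc9a3r2 rose. Cftr itself gave no signal above the foot of the scale. Pdzk1 and Gopc, also in this list, stayed below every array median and were not tested. Slc9a3r1, the scaffold also called NHERF1, read 11.09, 11.13 and 10.80 in Met1 and 9.52, 9.51, 9.69 and 9.59 in DB7. That is a difference of 1.43 (SE 0.10; limma, adjusted p = 2.57e-05), and its other probe sets differed by 1.31 and 1.67. The related scaffold Slc9a3r2 rose by 1.06 (SE 0.11; adjusted p = 0.000174), with 5 further tested probe sets between 0.11 and 0.77. Ezr, the linker ezrin that ties these scaffolds to actin, and Snap23, a membrane fusion protein, differed by -0.09 and 0.12 and did not pass. In this list 2 of 6 tested genes rose and 0 fell, where 13.0% of all tested genes rose and 17.9% fell.

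Among other chloride channels, 3 of 10 tested genes rose and 0 fell by their brightest tested probe sets. Of all tested genes on the array, 13.0% rose and 17.9% fell. The count leaves out dim genes of the list. Among these, Lrrc8c and Clcn2 were lower in Met1 without overlap (-0.83 and -0.31), and none was higher without overlap. Over all 22626 probe sets 16.2% were lower without overlap. Ttyh2, of the tweety family of membrane proteins, read 7.11, 7.47 and 7.41 in Met1 and 6.40, 5.86, 6.22 and 6.09 in DB7, a difference of 1.19. Its DB7 values lay below the array medians, so it passed the filter through Met1 alone and had to differ to be tested; it is 1 of the 3 counted. Lrrc8a, the obligatory subunit of the volume-regulated anion channel, rose by 0.36 (adjusted p = 0.00839). Clcn4, an endosomal chloride-proton exchanger, rose by 0.30 (adjusted p = 0.0406), a call lost when arrays were left out in turn, in 6 of 7 such fits. Clic4 did not pass by its brightest probe set (0.24), whereas its other 2 were higher by 0.56 and 0.84 (limma, adjusted p = 0.00137 and 0.000217). Clcn3 and Clns1a did not pass by their brightest probe sets (-0.29 and -0.18). Another probe set of each was lower, at -0.44 and -0.29 (limma, adjusted p = 0.0476 and 0.0277), and the rest did not pass. Ano10, the only other anoctamin measured, did not pass at 0.09.

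Of 14 tested genes of salt and water transport, 5 fell and 1 rose, where 17.9% of all tested genes fell and 13.0% rose. Atp1b1, the beta subunit of the sodium pump that sets the gradient for chloride uptake, read 9.19, 9.22 and 8.94 in Met1 and 11.11, 11.17, 11.18 and 10.97 in DB7. It fell by 1.99 (SE 0.10; limma, adjusted p = 3.59e-06), and 3 further tested probe sets gave -1.83 to -2.81. Fxyd3, a small regulator of the same pump, fell by 1.29 (adjusted p = 5.73e-05). Kcnma1, a large-conductance calcium-activated potassium channel, fell by 0.65 (adjusted p = 0.000224), and the bicarbonate carrier Slc4a4 and the potassium-chloride carrier Slc12a7 also fell, by 0.81 and 0.50. Another tested probe set of Slc4a4 differed by -0.11, and another of Slc12a7 by -0.76. The riser was Kcnn4, the intermediate calcium-activated potassium channel, at 0.52 (adjusted p = 0.00294). The chloride loader Slc12a2 did not pass, with 3 probe sets at 0.24, -0.04 and -0.48, and the water channel Aqp5 did not pass at -0.10.

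In the calcium pathway that opens Ano1, 2 of 9 tested genes rose and 1 fell. The shares over all tested genes were 13.0% and 17.9%. Orai1, the pore of store-operated calcium entry, read 10.03, 9.76 and 9.85 in Met1 and 8.79, 9.03, 9.03 and 8.94 in DB7. It rose by 0.93 (SE 0.10; limma, adjusted p = 0.0002), and by 0.55 in its other probe set. Its sensor Stim1 did not pass, at -0.12 and -0.36. Atp2c1, a calcium pump of the Golgi, rose by 0.43 and Itpr3, a calcium release channel, fell by 0.34 (adjusted p = 0.027 and 0.0265), and each call was lost without any single Met1 array. Atp2a2, the calcium pump of the endoplasmic reticulum, did not pass at 0.18.

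Clca proteins of lung vessels are known as ligands of the beta 4 integrin on tumour cells. Itgb4, that integrin, read 9.93, 9.51 and 9.40 in Met1 and between 7.74 and 8.18 in the 4 DB7 arrays. It rose by 1.61 (SE 0.15; limma, adjusted p = 9.12e-05), and its partner chain Itga6 rose by 0.45 (adjusted p = 0.0105). Src, a kinase downstream of it, did not pass by its brighter probe set (-0.26), whereas the other fell by 0.62 (adjusted p = 0.0299). These arrays measured the tumour and its stroma together and held no lung.

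**Figure D5:**
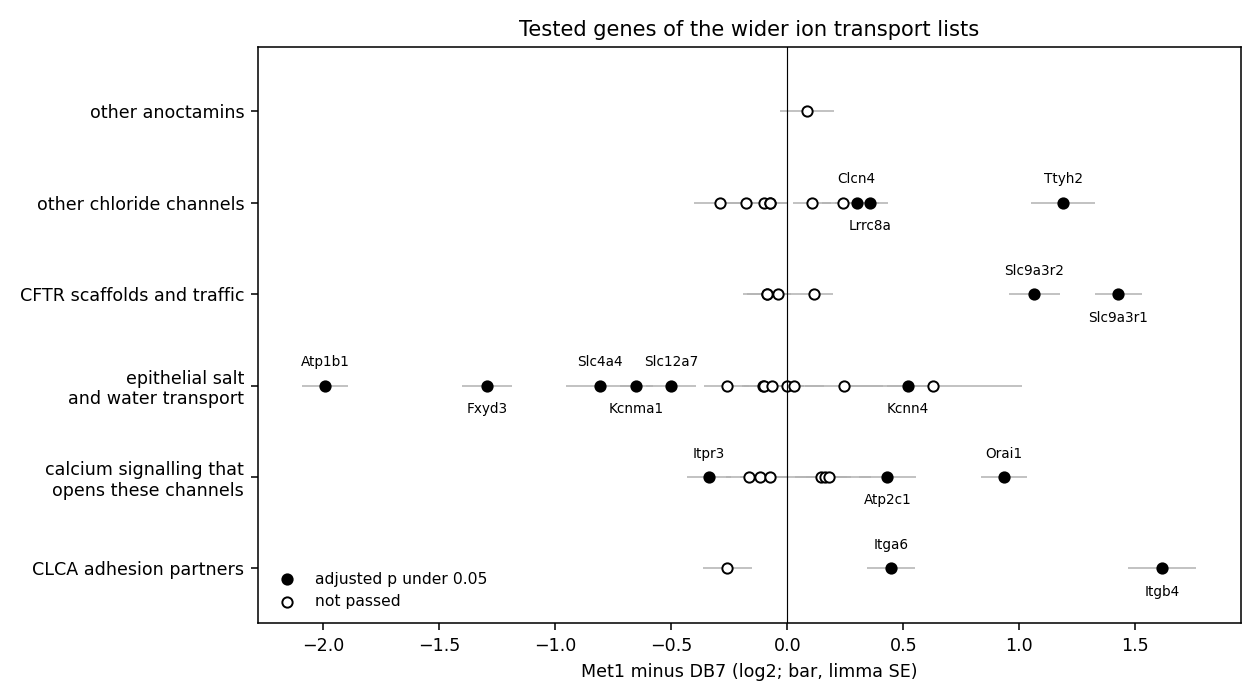
Met1 minus DB7 difference (log2, horizontal axis; bars, limma SE) of the 43 tested genes of the wider lists, 1 row per list, by the brightest tested probe set of each gene; filled circles passed the threshold and are named. Slc9a3r1 (1.43), Itgb4 (1.61), Ttyh2 (1.19) and Orai1 (0.93) lie to the right, and Atp1b1 (-1.99) and Fxyd3 (-1.29) to the left.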

How the data were processed

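Total RNA of 3 Met1 and 4 DB7 tumours was hybridised to 1-colour arrays. The deposited values are probe set summaries on a log2 scale, as judged from their range, since no label states the log base. RMA and MAS5 both appear in the submitters' processing notes, with no role attached to either. Software versions and detection calls: not given in the sources used here. Values were used as deposited.

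After 64 controls were left out, 22626 of 22690 probe sets remained, of which 20380 had 1 symbol, 691 several and 1555 none. For 20351 of the probe sets with 1 symbol the Entrez identifier matched the RefSeq table of GRCm38.p6, and 0 symbols changed. Probe sets above the array median on at least 3 arrays were tested, 11704 in all, with limma 3.58.1 in R 4.3.3 (lmFit, group alone in the model, eBayes with a trend on intensity, two-sided, Benjamini-Hochberg adjustment over the 11704, threshold 0.05); 3626 (31.0%) passed. Each gene was represented by its brightest tested probe set. The fit was run on simulated data with independent noise and a much smaller share of changed probe sets than was called here. That run therefore does not measure the error of the calls in these data. Arrays correlated at 0.994 to 0.996 within Met1, 0.986 to 0.992 within DB7 and 0.967 to 0.972 between lines, and their number limits the precision.

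Members and lists were chosen with earlier results of these data known. Named genes were all member probe sets, up to 4 genes of smallest p per list and the 5 nearest to Clca3a2. The 3 measured neighbours on each side of a member were also named. Slc4a4, Slc12a7, Slc12a2, Aqp5, Stim1, Clca3b, Clcn3, Clns1a, Jchain and the markers were added after their values were seen. Alternatives covered normalization, the filter, the variance model, array weights, which probe set stood for a gene, leaving out each array and the replicate number as a block.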

Additional observations from a re-analysis of the deposited data

Results flagged for a closer look

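Of 44 probe sets screened (members, their neighbours and named genes), 3 had a DB7 array far from the other 3 DB7 arrays; chance gives about 1 such array in 20 groups. For Clca1 (1416306_at) DB7 1 read 3.56, against 3.40 on the others, at the foot of the scale. For Fxyd3 DB7 2 read 11.9, against 11.6 on the others. For Kcnma1 DB7 4 read 7.78, against 7.63 to 7.65 on the others. The Fxyd3 and Kcnma1 arrays lay on the far side from Met1.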

How the results depend on the processing

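When single arrays were left out, the differences were 6.01 to 6.28 for Clca3a2 and 5.54 to 5.83 for the shared probe set. Those of Clca3a1 were 2.47 to 2.82 and 1.35 to 1.59. Groups that do not overlap keep their sign in such fits, and leaving out 1 array moves a group mean by less than 1 SD. Both follow from arithmetic, and these ranges are a description only. The differences of Cftr ran from -0.17 to -0.06 and from -0.08 to -0.01, and those of Clca1 from -0.04 to 0.02 and from -0.12 to -0.03. The difference of Ano1 ran from 0.33 to 0.52, with its call lost in 4 of the 7 fits. Probe sets called over the array ran from 2306 (without Met1 3; 2323 without Met1 2) to 3786, those higher from 1006 to 1593 and those lower from 1266 to 2193; the cause was not tested. Genes of the wider lists ran from 7 to 11 higher and from 5 to 7 lower when single arrays were left out, came to 11 higher and 9 lower with the smallest p per gene, and to 8 lower without the filter and with array weights, against 10 and 6. Median centring turned the excess of lower calls round, at 1775 probe sets higher and 1690 lower against 1566 and 2060, and array weights gave 4337 calls in all. Quantile normalization, median centring, other filters, variance models and array weights kept the call of Ano1 (adjusted p = 0.0174 to 0.0434). Without the filter, Clca1 and Cftr had adjusted p of 0.38 to 0.823 in limma. Calls of Clcn4, Itpr3 and Atp2c1 were lost, and that of Clic4 gained, under some alternatives; the cause was not tested. Replicate numbers did not pair the tumours (same-numbered correlations of -0.172, -0.0532 and 0.0157). With the replicate number as a block, 2803 probe sets were called in limma, Ano1 differed by 0.52 (adjusted p = 0.0351) and 8 listed genes rose and 5 fell. Only DB7 has a replicate 4, so this block takes DB7 4 out of the difference. Leaving out DB7 4 gave the same Ano1 difference, 0.52. Values below the array median are limited by background.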
